A study of Mus musculus with 22 samples.

Results

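The mucus-layer bacteria described here are the rows of the 16S rRNA tables whose phylum is Verrucomicrobia or Deferribacteres. They made up 3 of the 72 rows of both tables, 2 of 40 in lung and 1 of 32 in colon. In lung, Verrucomicrobia had 1 row, Akkermansia muciniphila, and Deferribacteres had 1 row, Mucispirillum schaedleri. In colon, Deferribacteres had 1 row, again M. schaedleri, and no Verrucomicrobia row was listed. The study asked whether resveratrol (RES), a plant polyphenol, alters the bacteria of lung and gut in mice with allergic airway disease. All mice were female BALB/c aged 6 to 8 weeks. Ova-res mice were sensitized with 250 µg ovalbumin (OVA) and alum intraperitoneally on day 0, challenged with 50 µg OVA intranasally on day 7, and gavaged with 100 mg/kg RES in carboxymethyl cellulose on days 1 to 14. Ova-veh mice received the same OVA and 200 µl carboxymethyl cellulose alone, and naive mice form the third group. The protocol describes the OVA injection for each mouse and gives no separate treatment for naive mice, so what naive mice received is known only from their label. Lung tissue was measured in 3 Ova-res, 3 Ova-veh and 3 naive mice, and colon flush in 4, 4 and 5 mice in that order. Groups were caged apart, so cage and treatment cannot be told apart.

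The mucus that lines the intestine is a gel of mucin glycoproteins whose outer part is a habitat for bacteria. A. muciniphila cleaves mucin glycans and uses them as carbon and nitrogen source. M. schaedleri is a spiral-shaped resident of the mucus and crypts of the rodent intestine, and it is the usual member of Deferribacteres found there. Both are gram-negative anaerobes known from the gut.

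Each value is the percent of a mouse's 16S reads assigned to the species. The deposited fractions are rounded to 3 decimals, so a share is known to within 0.05 percentage points on either side and a share listed at 0 lay under 0.05%. Read numbers are missing from the sources used here. With the depth unknown, no interval for counting error could be attached to a share. The listed taxa summed to 96.2 to 97.3% of reads in lung and 96.9 to 99% in colon. Of 18 genera known from airways, skin or reagents that were searched for, 0 were listed in lung and 0 in colon. The search covered only these genera and does not set the tissues apart. Of the 40 lung rows, 29 carried a lineage that the colon table also lists, and these held 92.2 to 93.2% of the lung reads of each mouse. The lung table thus held mostly lineages that the gut table held too, and the origin of these reads was not tested. Groups were compared by a two-sided exact permutation test of the difference between means, adjusted (Benjamini-Hochberg) over all taxa of the tissue. With 3 mice against 3 the smallest p it can give is 0.1. A test over the 3 groups at once, an exact permutation test of the between-group sum of squares, can go lower.

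A. muciniphila, the mucin feeder, was highest in the lungs of Ova-res mice and lowest in those of Ova-veh mice. Its share was 1.4, 1.5 and 1.7% in the 3 Ova-res lungs, against 1.3, 1.1 and 1.3% in the 3 Ova-veh lungs. Every Ova-res lung lay above every Ova-veh lung, with 1 rounding step between the lowest Ova-res and the highest Ova-veh value. The 3 naive lungs were all listed at 1.4%, between the groups and level with the lowest Ova-res lung. Among the 40 lung taxa of each mouse, A. muciniphila ranked 11th to 13th in Ova-res lungs, 14th or 15th in Ova-veh lungs and 13th in naive lungs. The 3 groups held 64.9% of the variation of its share (exact permutation p = 0.0143 over 1680 labelings, adjusted p = 0.571 over the 40 taxa), the smallest p of any lung taxon in this test. It was the 1 taxon of 40 under an unadjusted 0.05 (2.5%). Because the naive lungs were all listed at 1.4%, any spread among them within the rounding is not seen. The test over the 3 groups was not repeated with values at the edges of their rounding intervals. Leaving out single mice gave an exact permutation p from 0.00357 to 0.0571, with 0.0571 without any 1 of the naive lungs and 0.05 without Ova-veh replicate 2. The study had named this species from these same mice, so its place at the top is not independent evidence. The study also reports by qPCR a significantly higher abundance of it in Ova-res lungs than in either other group. Those qPCR values were not part of the data used here.

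**Figure D1:**
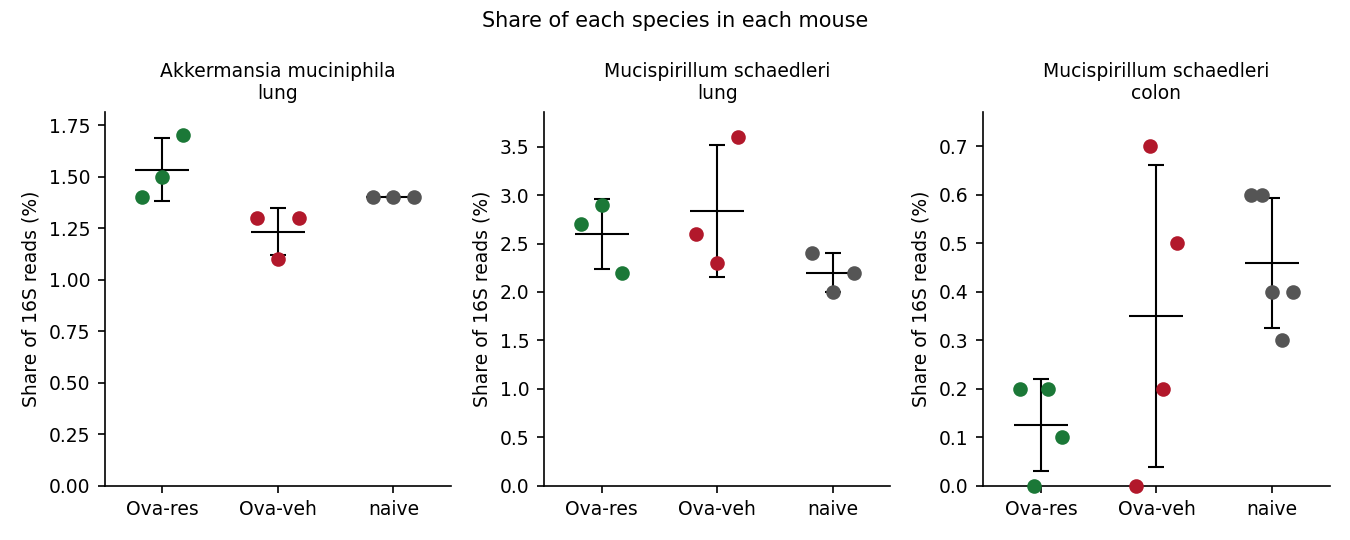
Share of 16S reads (%) of A. muciniphila in lung and of M. schaedleri in lung and colon, with 1 point per mouse and the group mean ± SD as bars, for Ova-res, Ova-veh and naive mice. A. muciniphila lies at 1.4 to 1.7% in Ova-res lungs and at 1.1 to 1.3% in Ova-veh lungs, while M. schaedleri in colon lies at 0 to 0.2% in Ova-res mice and at 0.3 to 0.6% in naive mice.

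Between pairs of groups no difference in A. muciniphila passed the threshold, which the exact test cannot reach with 3 mice against 3. The Ova-res mean exceeded the Ova-veh mean by 0.3 percentage points (exact permutation p = 0.1, adjusted p = 1). In the same direction 2 of 40 lung taxa had groups without overlap (5%), and A. muciniphila was 1 of them. The Ova-veh mean was 1.23% against 1.40% in naive lungs, and the mice of these groups did not overlap (difference -0.167 percentage points, exact permutation p = 0.1, adjusted p = 1). Again 2 of 40 taxa were lower without overlap (5%). The Ova-res and naive groups met at 1.4% (difference 0.133 percentage points, exact permutation p = 0.4). Without Ova-res replicate 3, the highest lung, this difference was 0.05, and without Ova-veh replicate 2, the lowest, that of Ova-veh against naive was -0.1. These 3 comparisons share mice and are not independent of each other. Limma, a linear model with a spread moderated over all taxa, ranked A. muciniphila 1st of 40 by p in Ova-res against Ova-veh lungs, at 0.31 on the log2 scale (unadjusted p = 0.0115, adjusted p = 0.461). The fold was 1.24, and its unadjusted 95% interval of 1.07 to 1.44 left out 1. The spread behind this interval was shared by the 3 groups, with the naive lungs tied at 1.4%. Limma was not rerun at the edges of the rounding intervals, so the interval may be too narrow. Limma put the species at -0.19 on the log2 scale in Ova-veh against naive lungs (adjusted p = 0.563, standard error 0.0903), and its fold of 0.879 had an unadjusted 95% interval of 0.757 to 1.02. For Ova-res against naive lungs it gave a fold of 1.09 with an interval of 0.94 to 1.27. Limma called 0 of 40 lung taxa (0%) in each of the 3 comparisons, with 3 under an unadjusted 0.05 for Ova-res against Ova-veh, 1 for Ova-veh against naive and 2 for Ova-res against naive. If every value lay at the edge of its rounding interval, the Ova-res and Ova-veh means would differ by 0.2 percentage points (exact permutation p = 0.3), and the Ova-veh and naive means by -0.0667 (exact permutation p = 1).

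M. schaedleri, the mucus resident, was the more abundant of the pair in all 9 lungs and spread more from mouse to mouse. It held 2.7, 2.9 and 2.2% of reads in Ova-res lungs, 2.6, 2.3 and 3.6% in Ova-veh lungs and 2.4, 2 and 2.2% in naive lungs. The groups overlapped in every pair, and the highest value, 3.6%, belonged to a single Ova-veh lung. Over the 9 lungs its coefficient of variation was 19.1%, against 11.6% for A. muciniphila. It ranked 7th to 11th among the 40 taxa of a lung. Its means differed by -0.233 percentage points in Ova-res against Ova-veh lungs (exact permutation p = 0.8), by 0.633 in Ova-veh against naive lungs (exact permutation p = 0.2) and by 0.4 in Ova-res against naive lungs (exact permutation p = 0.3), with an adjusted p of 1 in each. Without the Ova-veh lung at 3.6%, replicate 3, the first difference became 0.15 and the second 0.25. By limma the fold was 0.929 (unadjusted 95% interval 0.683 to 1.26), 1.27 (0.932 to 1.72) and 1.18 (0.865 to 1.60) in the same order. The intervals include folds both below and above 1, so an equal level was not shown. The test over the 3 groups gave 32.7% of the variation between groups (exact permutation p = 0.293, adjusted p = 0.893).

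Set against each other within a lung, the species gave a ratio that does not depend on the remaining taxa. M. schaedleri reads per A. muciniphila read numbered 1.93, 1.93 and 1.29 in Ova-res lungs, 2, 2.09 and 2.77 in Ova-veh lungs and 1.71, 1.43 and 1.57 in naive lungs. Each Ova-veh lung had a higher ratio than each lung of either other group. Geometric means were 1.69 for Ova-res lungs, 2.26 for Ova-veh lungs and 1.57 for naive lungs, and the log2 ratio had an SD of 0.333, 0.255 and 0.132 in that order (n = 3 each). In Ova-res against Ova-veh lungs the log2 ratio differed by -0.42, a fold of 0.747, and in Ova-veh against naive lungs by 0.53, a fold of 1.44 (exact permutation p = 0.1 each, the smallest possible, and 0.15 adjusted over the 3 pairs). Ova-res and naive lungs differed by 0.11 (exact permutation p = 0.6). Over the 3 groups the exact permutation p was 0.0786, with 54.9% of the variation between groups. It was 0.0143 without Ova-res replicate 3, the lung with the lowest ratio, and 0.254 without Ova-veh replicate 3, the lung with the highest.

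**Figure D2:**
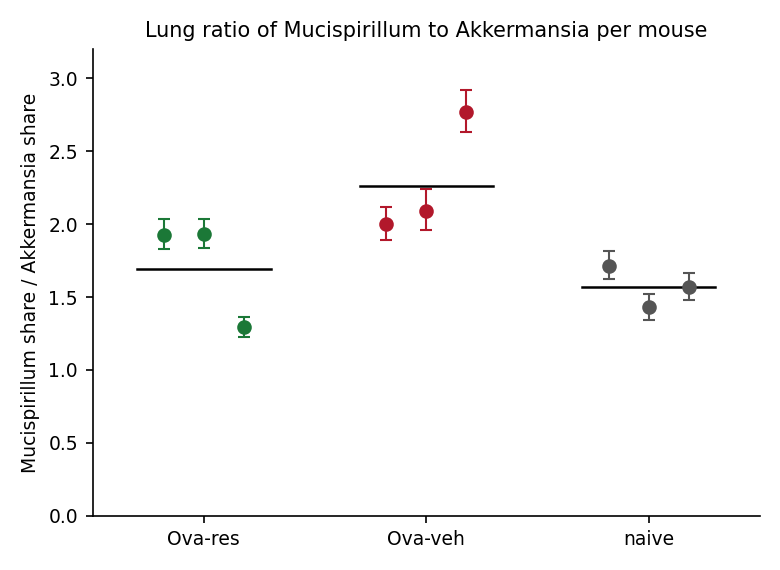
Ratio of the M. schaedleri share to the A. muciniphila share in each lung of Ova-res, Ova-veh and naive mice, with bars that span the values allowed by rounding and a line at the geometric mean of each group. All 3 Ova-veh lungs lie at 2 or above and the other 6 lungs lie below 2, but the rounding bars of Ova-res replicates 1 and 2 reach 2.04 and 2.03 and that of Ova-veh replicate 1 reaches down to 1.89.

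Rounding bears on the first of these gaps. With the rounding interval of each share, the ratio of Ova-veh replicate 1 lay between 1.89 and 2.12 and that of Ova-res replicate 2 between 1.84 and 2.03, so their order is not fixed by the deposited values. At the bounds that bring the groups together, Ova-res against Ova-veh gave a log2 difference of -0.26 (exact permutation p = 0.6), while Ova-veh against naive lungs gave 0.36 and still did not overlap (exact permutation p = 0.1). Such a lack of overlap was not rare among lung ratios. Of the 630 ratios between any pair of the 36 taxa above 0 in every lung, 46 (7.3%) did not overlap between Ova-res and Ova-veh lungs and 53 (8.41%) did not overlap between Ova-veh and naive lungs. The species together held 3.9 to 4.4% of reads in Ova-res lungs, 3.4 to 4.9% in Ova-veh lungs and 3.4 to 3.8% in naive lungs. Their shares showed no clear relation across the 9 lungs (Pearson r = -0.17, exact permutation p = 0.632, Spearman rho = -0.21, exact permutation p = 0.592, 1 relation computed). Without the 2 lungs farthest from the median A. muciniphila share, Ova-res replicate 3 and Ova-veh replicate 2, r was -0.31 (exact permutation p = 0.524). Groups of 3 lungs are too small for a relation within groups.

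In colon flush, M. schaedleri was scarcer than in lung, and it was lowest in Ova-res mice. It also varied more than in lung, as did every other taxon listed in both tissues. It was listed at 0.2, 0, 0.2 and 0.1% of reads in the 4 Ova-res mice, at 0, 0.7, 0.2 and 0.5% in the 4 Ova-veh mice and at 0.6, 0.6, 0.4, 0.3 and 0.4% in the 5 naive mice. No Ova-res mouse reached the lowest naive mouse, whereas Ova-veh mice spanned the full range of both other groups. The coefficient of variation was 76.6% among Ova-res mice, 88.8% among Ova-veh mice and 29.2% among naive mice. Over all colon mice it was 71.7%, 16th of 32 taxa from the lowest, against 19.1% and 23rd of 40 in lung. For S24-7 it was 29.8% in colon and 2.1% in lung. Its rank among the 32 colon taxa of a mouse ran from 18th to 30th in Ova-res mice, from 13th to 27th in Ova-veh mice and from 14th to 18th in naive mice. Set beside lung, where its share never fell under 2%, the highest colon share was 0.7%. The lung and colon tables were made separately and from different extractions, so these levels were not tested against each other.

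Colon flush of Ova-res mice averaged 0.125% M. schaedleri against 0.46% in naive mice, a ratio of 0.272 (difference -0.335 percentage points, exact permutation p = 0.0159). After adjustment over the 32 taxa the p was 0.152, so the difference did not pass the threshold over taxa. As a phylum, with M. schaedleri its sole row, Deferribacteres had an adjusted p of 0.0476 over the 6 colon phyla (exact permutation), and 3 of the 6 phyla passed (50%), among them Bacteroidetes and Firmicutes. This adjustment was chosen after the values were seen, and leaving out single mice gave 0.0357 to 0.143, under 0.05 only without Ova-res replicate 4 among the 9 mice left out in these runs. In this comparison 8 of 32 taxa had an unadjusted exact p under 0.05 (25%), and M. schaedleri was the 1 taxon lower without overlap (3.12%). Leaving out single mice gave an exact permutation p between 0.0179 and 0.0536. Against Ova-veh mice, which averaged 0.35%, the ratio was 0.357 (difference -0.225 percentage points, exact permutation p = 0.343, adjusted p = 0.762). That difference was -0.342 without Ova-veh replicate 1, listed at 0, and -0.108 without Ova-veh replicate 2, at 0.7%. The Ova-veh mean was 0.761 times the naive mean (difference -0.11, exact permutation p = 0.571, adjusted p = 1). Without Ova-veh replicate 1 the Ova-veh mean stood 0.00667 percentage points above naive, and without replicate 2 the difference was -0.227. By limma on log2(percent + 0.01), M. schaedleri stood at -2.45 in Ova-res against naive colons (adjusted p = 0.385, standard error 1.19), and its fold had an unadjusted 95% interval of 0.0309 to 1.09. This log2 value depends on the amount added to the share of 0, and limma called 0 of 32 colon taxa (0%) in each comparison, with 3 under an unadjusted 0.05 for Ova-res against Ova-veh, 2 for Ova-veh against naive and 0 for Ova-res against naive. The limma fit for Ova-res against naive colons took its spread from all 3 groups. For M. schaedleri its unadjusted limma p was 0.0606, against 0.0203 with only these 2 groups in the fit and 0.123 with a pseudocount of 0.001%. The adjusted p was 0.385, 0.187 and 0.403 in that order. The test over the 3 groups gave 39.4% of the variation between groups (exact permutation p = 0.0895, adjusted p = 0.476), where 3 of the 32 taxa had an unadjusted p under 0.05 (9.38%).

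The largest contrast between the tissues for M. schaedleri was that of Ova-res against naive mice. Its mean log2(percent + 0.01) was 0.23 higher in lung and 2.45 lower in colon, so that the lung change exceeded the colon change by 2.68. Group labels were permuted within each tissue, which tests against no change in either tissue, and this gave an exact permutation p of 0.00119 over 2520 labelings. The adjusted p was 0.0345 over the 29 taxa listed in both tissues, and M. schaedleri was the 1 of 29 past 0.05 (3.45%), with 9 of 29 (31%) under an unadjusted 0.05. Adjusted over all 87 tests of the 3 pairs of groups, the p was 0.104. The p adjusted over 29 taxa went above 0.05, up to 0.124, without any 1 of the colon mice, without lung Ova-res replicate 1 or without lung naive replicate 2. The difference was 1.66 without the Ova-res colon mouse listed at 0, replicate 2. Ova-veh against naive mice gave 1.79 (exact permutation p = 0.108) and Ova-res against Ova-veh mice gave 0.89 (exact permutation p = 0.549).

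**Figure D3:**
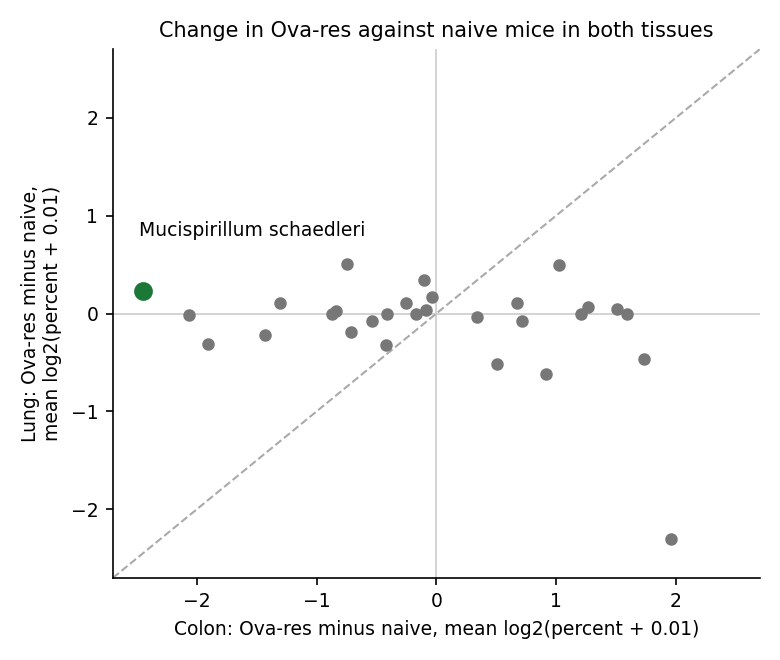
Change of the 29 taxa listed in both tissues, in Ova-res against naive mice, as the difference of mean log2(percent + 0.01) in colon (x axis) and lung (y axis), with equal changes on the dashed line. M. schaedleri, in green, lies at -2.45 in colon and 0.23 in lung.

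A. muciniphila could not be followed in colon. Each listed colon taxon reached at least 0.1% in at least 1 mouse, and no source used here gives the rule by which taxa were listed. The reads outside the listed colon taxa came to 1 to 2.3% in Ova-res mice, 1.4 to 3.1% in Ova-veh mice and 1.4 to 2.4% in naive mice. The rounding of 32 rows can move such a sum by up to 1.6 percentage points. An unlisted species could thus have held up to 4.7% in the colon mouse with the largest remainder, which is above its 1.1 to 1.7% in lung. The ratio of the species therefore has no colon value.

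For each species, the taxa whose shares ran most like it were found by the root mean square difference of standardized shares over all mice of the tissue, in units of SD, as a description. For A. muciniphila in the 9 lungs these were Prevotella (0.779), Dehalobacterium (0.989) and the more abundant row of unclassified Clostridiales (1.07), out of 35 taxa with a mean of at least 0.1%. Prevotella averaged 2.57% in Ova-res lungs, 2.43% in Ova-veh lungs and 2.5% in naive lungs. For M. schaedleri in lung they were Odoribacter (0.859), the less abundant Lachnospiraceae row (0.878) and Erysipelotrichaceae (0.922). A. muciniphila came 19th on that list, at 1.53. For M. schaedleri in the 13 colon mice they were Oscillospira (0.661), Dehalobacterium (0.684) and Ruminococcus (0.687), out of 27 taxa. Oscillospira averaged 4.9% in Ova-res colons, 6.65% in Ova-veh colons and 6.84% in naive colons, and Ruminococcus 0.6, 1.35 and 1.06% in the same order.

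Other bacteria that live in mucus or use mucin glycans did not share a direction. Of this list of Bacteroides, Parabacteroides, Rikenellaceae, S24-7, Ruminococcus gnavus, Desulfovibrio and others, 7 rows were listed in lung and 9 in colon. In Ova-res against Ova-veh lungs 3 had a higher and 4 a lower mean (median difference -0.0333 percentage points, against 0.0167 over all 40 taxa). In Ova-veh against naive lungs 4 were higher and 3 lower (median 0.133, against 0 over all taxa), and in Ova-res against naive lungs 3 were higher and 3 lower (median 0, against 0). R. gnavus, which cleaves mucin glycans, averaged 0.533% in Ova-res lungs against 0.767% in naive lungs without overlap (exact permutation p = 0.1), as did 2 of 40 taxa in that direction (5%). In colon, 6 of the 9 rows were higher and 3 lower in Ova-res against Ova-veh mice (median 0.1 percentage points, against 0 over all 32 taxa), and 4 were higher and 5 lower both in Ova-veh against naive mice (median -0.035, against 0) and in Ova-res against naive mice (median -0.06, against -0.07). Bacteroides acidifaciens averaged 0.9% in Ova-veh colons against 2.2% in naive colons (exact permutation p = 0.0476). The Bacteroides row with no species, a user of dietary and mucin glycans, averaged 5.33% in Ova-res against 2.22% in naive colons (exact permutation p = 0.0159), and S24-7 36.5% against 28.9% (exact permutation p = 0.0476), while M. schaedleri was lower there. After adjustment over the 32 colon taxa 0 rows of the list passed in any colon comparison. In lung, adjusted over the 40 taxa, none could pass, since the smallest possible exact p is 0.1. Under an unadjusted exact 0.05 were 2 of 9 for Ova-res against naive colons, where 8 of all 32 taxa were (25%). For Ova-veh against naive colons 1 of 9 was, where 2 of 32 were (6.25%). For Ova-res against Ova-veh colons 0 of 9 were, where 1 of 32 was (3.12%). The share of the list in Ova-res against naive colons was thus near that of all taxa.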

How the data were processed

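16S rRNA amplicon libraries were made from lung tissue and colon flush (V3-V4 regions for colon). Lung reads were classified into operational taxonomic units by the authors on the Nephele platform, and no source used here names the classifier for colon reads. The authors deposited 1 table per tissue, with each taxon as a fraction of the reads of a mouse. No source used here gives the pipeline version, the reference taxonomy or the depth per mouse, so the precision from counting is unknown. For the lung ordination, a legend of the study states that a setting of that platform left out some mice. Whether the lungs in these groups are the ones kept is not stated, so they may be part of larger groups. No extraction blank was analysed here. Samples were grouped by their titles, and each was taken as 1 mouse. No source used here says whether lung and colon samples with the same number came from the same mouse.

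Here fractions were taken as percent. Exact permutation tests were run with numpy 2.4.6 and scipy 1.17.1, on tables read by pandas 2.3.3 (Python 3.11.15). Limma 3.58.1 in R 4.3.3 was run on log2(percent + 0.01) with 3 groups in 1 fit per tissue, leaving out taxa whose mean was under 0.01%, at an adjusted p under 0.05. Both were tested on simulated data. Plots were drawn with matplotlib 3.10.9. The named taxa are the members, the 3 taxa most like each of them and the listed rows of the mucus list past an unadjusted test or without overlap. The members, lists and tests were chosen with earlier results of these data known. Alternatives were rescaling to 100%, centred log-ratios, rounding bounds, pseudocounts of 0.001, 0.05 and 0.1%, other filters on the mean, 2 groups in the fit, ranks, a replicate block, leaving out each mouse and, added after seeing the data, adjustment over phyla.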

Additional observations from a re-analysis of the deposited data

Results flagged for a closer look

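The change of M. schaedleri in Ova-res against naive mice differed between lung and colon by 2.68 on the log2(percent + 0.01) scale. The exact permutation p was 0.00119, or 0.0345 adjusted over 29 taxa and 0.104 adjusted over all 87 tests of the 3 pairs of groups. This test is against no change in either tissue, so it does not show by itself that the tissues differ. Leaving out single mice took the exact permutation p adjusted over 29 taxa up to 0.124. The 4 Ova-res colon mice all lay below the 5 naive colon mice, while 2 of the 3 Ova-res lungs lay above the 3 naive lungs. None of the 3 colon groups of M. schaedleri held a mouse past the 95% limit of Dixon's test for a single distant value.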

How the results depend on the processing

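Of 184 values of the 34 results recomputed under another setting, 182 kept their direction and their side of the threshold. For the exact tests between pairs of lung groups the side was fixed in advance, since their smallest possible p is 0.1. Only the direction could change there, so the count overstates how much was tested. M. schaedleri in Ova-res against naive colons (-0.335 percentage points) had an adjusted p of 0.0476 over 6 phyla (exact permutation), a setting chosen after seeing the data, against 0.152 over 32 taxa. The other exception was the lung ratio in Ova-res against naive mice, whose log2 difference was -0.051 at the rounding bounds. The labels do not say that a replicate number pairs mice. Deviations of same-numbered mice correlated from -0.827 to 0.484 in lung (median -0.226, against 0.13 for mice of different numbers) and from -0.243 to 0.483 in colon (median 0.245, against -0.0722). Not every pair was above 0.1, and the numbers were not used as pairs. The median for same-numbered mice was the lower in lung and the higher in colon. This check cannot show that same-numbered mice share nothing. With a replicate block the A. muciniphila difference in Ova-res against Ova-veh lungs stayed at 0.3 percentage points (exact permutation p = 0.25, the smallest possible). With so few pairs the exact block test cannot go under 0.05 in either tissue, so it could add no call. In limma the block changed no call. With centred log-ratios A. muciniphila in Ova-veh against naive lungs stood at -0.12 on the log2 scale (exact permutation p = 0.6). With pseudocounts of 0.05 and 0.1% the lung minus colon change of M. schaedleri in Ova-res against naive mice was 1.98 and 1.64.

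Leaving out single mice turned 6 values. The M. schaedleri difference in Ova-res against Ova-veh lungs ran from -0.5 to 0.15 percentage points (log2 -0.24 to 0.078 by limma, above 0 without Ova-res replicate 3 or Ova-veh replicate 3). In colon, Ova-veh against naive ran from -0.227 to 0.00667, and the limma log2 change of Ova-res against Ova-veh from -2.34 to 0.028, above 0 without Ova-res replicate 2. The lung minus colon change ran from -0.13 to 2.24 for Ova-res against Ova-veh and from 1.66 to 3.12 for Ova-res against naive. The share of variation of the lung ratio between the 3 groups ran from 41.1 to 72.0%. The taxa called by limma ran from 0 to 2 for Ova-res against Ova-veh and against naive in lung, both without Ova-res replicate 3, and from 0 to 1 for Ova-res against Ova-veh (without Ova-veh replicate 1) and Ova-veh against naive (without Ova-veh replicate 2) in colon. The cause of these changes was not tested.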
